A study of Mus musculus with 4 samples.

Results

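BAF subunits were examined as a set of 10 genes, *Smarca2*, *Smarca4*, *Smarcb1*, *Smarcc1*, *Smarcc2*, *Smarce1*, *Arid1a*, *Arid1b*, *Actl6a* and *Actl6b*. They were taken by name, and all 10 were found among the 55573 genes counted in each library. Every one of them passed the filter on low counts that left 16832 genes for testing. RNA was sequenced from tdTomato-positive cells sorted by FACS from basal telencephalon, the preoptic area (POA) in the study's text, of mouse embryos at E16. There were 2 *Dnmt1* wild-type (WT) and 2 *Dnmt1* knockout (KO) libraries. All embryos carried *Hmx3-Cre* and the tdTomato reporter, and the KO embryos also carried *Dnmt1* alleles with exons 4 to 5 flanked by loxP sites. Recombination, and with it the reporter, is therefore limited to cells that express or once expressed *Hmx3* and to their progeny. Cells were pooled from 12 WT and 6 KO embryos. The labels call the libraries biological replicates, whereas the study's text calls them technical duplicates of pools, so SDs and p-values describe the spread between these libraries, which may be technical.

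BAF complexes, the mammalian SWI/SNF chromatin remodellers, use the energy of ATP to slide or evict nucleosomes and so open DNA at promoters and enhancers. Each complex is built around 1 of 2 interchangeable ATPases, a core of scaffold subunits, an ARID subunit that defines the canonical BAF form, and actin-related proteins. When a neural progenitor leaves the cell cycle, several subunits are exchanged: ACTL6A, PHF10 or DPF2, and SS18 of the progenitor complex are replaced by ACTL6B, DPF1 or DPF3, and SS18L1 in the neuron. Loss of single BAF subunits is known to disturb neural development in the mouse and in humans.

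The libraries held 8075102 to 9995968 counts, so that 3 counts corresponded to 0.294 to 0.372 CPM, the count of a gene relative to the TMM-adjusted total of its library. *Dnmt1* itself had 385 and 447 CPM in WT and 283 and 281 CPM in KO, a log2 fold change of -0.56 (SE 0.14, edgeR adjusted p = 0.0511). Transcripts without the floxed exons are still counted, so this level does not measure the deletion. *Hmx3* was present in every library (71.8 to 93.7 CPM), as was *Gad1*, the GABA-synthesizing enzyme (127 to 160 CPM). The share of mitochondrial genes in all counts was 9.55% for WT replicate 1 and 1.95% to 2.73% elsewhere. Markers of other cells moved with the genotype. Astrocyte markers (8 of 8 called higher in KO) summed to 212 to 216 CPM in WT and 3230 to 3430 CPM in KO, and *Gfap* was at 0 counts in both WT libraries. Oligodendrocyte markers (6 of 7 called higher) summed to 94.7 to 109 CPM in WT and 485 to 517 CPM in KO, and mural markers (6 of 6) to 52.8 to 60.7 CPM and 375 to 376 CPM. In the lists of radial glia (7 tested), oligodendrocyte precursors (5) and microglia (5), 1 marker each was called higher, while 2 of 8 general neuron markers were called lower. None of 8 GABAergic, 5 POA lineage, 7 cycling, 5 endothelial and 3 erythroid markers tested was called by edgeR, where 3, 1, 1, 3 and 2 of them had an unadjusted p under 0.05, while DESeq2 called 1 GABAergic and 1 erythroid marker lower. Over all genes tested, edgeR called 7.33% higher and 0.57% lower, 22.7% had an unadjusted p under 0.05, and DESeq2 called 1.47% lower. The part of these other cells in the values below was not tested, and fewer cells of a type cannot be told apart from less RNA per cell.

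To ask whether *Dnmt1* deletion went along with a different set of BAF subunits, levels were first compared between genes within each library, as CPM per kilobase of annotated exon. *Smarcc2*, which encodes a core scaffold, and *Smarca4*, which encodes the ATPase BRG1, were the most abundant. *Smarcc2* had 118 and 138 CPM per kb in WT and 109 and 119 in KO. *Smarca4* had 117 and 136 CPM per kb in WT and 108 and 118 in KO. These ranges overlapped, and both lay above those of the other 8 genes in every library. *Smarcc1*, the paralogue of *Smarcc2*, followed with 44.0 and 35.1 CPM per kb in WT and 32.5 and 32.4 in KO. The next 5 genes, *Actl6b*, *Smarce1*, *Smarcb1*, *Arid1a* and *Smarca2*, had WT means from 26.5 to 19.5 CPM per kb, and each overlapped its neighbour in this order. *Arid1b* and *Actl6a* had the lowest WT means, with 15.3 ± 1.15 and 14.5 ± 1.79 CPM per kb (SD, n = 2), and also overlapped. The first 3 genes and the 2 lowest kept their places in KO. Below the first 2 places the order depended on the length used: per kilobase of the longest transcript, *Smarca2* moved from place 8 to 5, *Smarcb1* from 6 to 9 and *Actl6a* from 10 to 8 in WT, with *Arid1b* last, and in both KO libraries *Smarca2* (48.9 and 52.0) lay above *Smarcc1* (44.1 and 43.9).

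**Figure D1:**
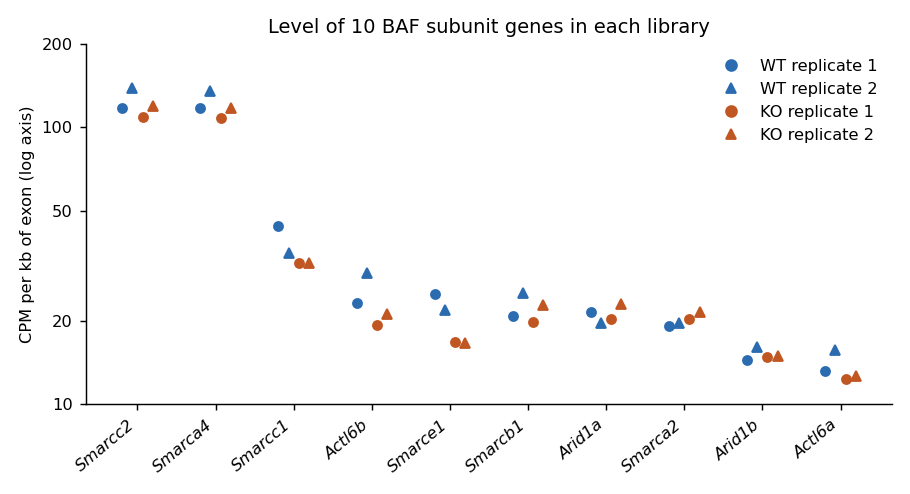
Level of the 10 BAF subunit genes in each library, in CPM per kb of exon on a log axis, with WT in blue, KO in orange, circles for replicate 1 and triangles for replicate 2. *Smarcc2* and *Smarca4* lie above 100 in all 4 libraries, *Smarcc1* between 32.4 and 44.0, and the other 7 genes between 12.4 and 29.7.

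Between genotypes, 0 of the 10 BAF subunit genes differed at an edgeR adjusted p under 0.05, and 0 of 10 with DESeq2. Over all genes tested 7.9% were called by edgeR, 7.33% higher and 0.57% lower in KO, and 8.87% by DESeq2, so that a count of 0 among 10 genes lies near the background. At an unadjusted p under 0.05 there were 2, *Smarce1* and *Actl6b*, both with lower values in KO, while 22.7% of all genes had such a p, 8.01% in this direction. The 10 log2 fold changes lay between -0.49 and 0.10. Of these, 8 were below 0, with a median of -0.17 beside -0.03 over all genes (52.4% of them below 0). Under scaling by library size alone 7 of the 10 were below 0. Among the 4489 genes tested whose mean CPM reached that of the lowest member, a group formed after the values were seen, the median was -0.15, with 3203 below 0 and 706 lower at an unadjusted p under 0.05. The KO values were all lower than the WT values in 4 of the 10 genes, all higher in 1 and between them in 1, against 25.2%, 28.3% and 15.7% of all genes. In these 4489 genes, the KO values were all lower in 1857 and all higher in 707, so that the counts among the 10 genes lie nearer to this group than to all genes. Without WT replicate 1, 4 of the 10 genes were called lower (*Actl6b*, *Smarca4*, *Smarcc2* and *Smarce1*, with 7.15% of all genes called lower), and without WT replicate 2 it was 2 (*Smarcc1* and *Smarce1*, with 12.0% of all genes). These fits take the spread from the KO pair, which was the closer one (chi-square per degree of freedom of the counts 4.28, against 57.2 for the WT pair), and this holds for every value given below without a WT library. The chi-square includes mitochondrial rRNA, which was 8.66% of counts in WT replicate 1 and 1.51% in WT replicate 2.

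**Figure D2:**
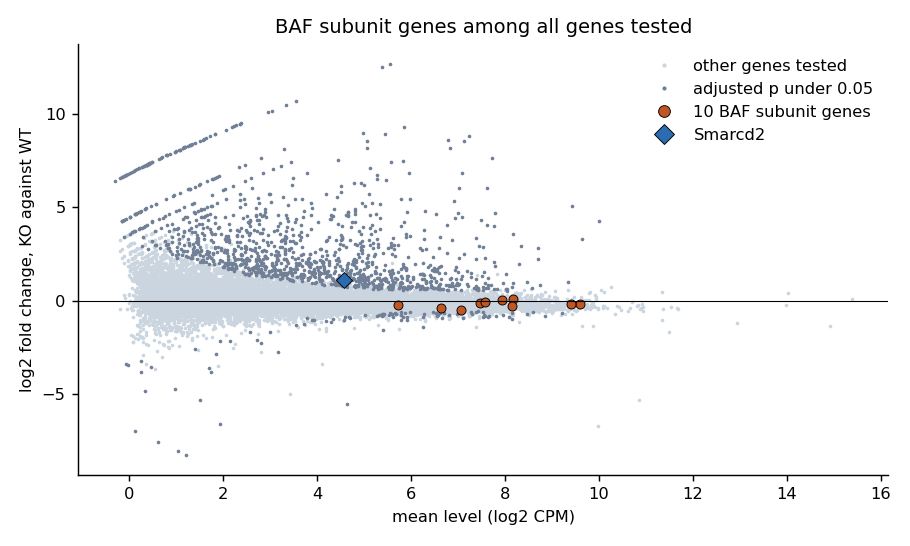
Log2 fold change of KO against WT over the mean level in log2 CPM for all 16832 genes tested; dark grey points have an edgeR adjusted p under 0.05. The 10 BAF subunit genes (orange) sit at moderate to high levels between -0.49 and 0.10, and *Smarcd2* (blue diamond) lies above them at 1.10.

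Neither ATPase gene passed the test. *Smarca4* lies on chromosome 9 of GRCm38 from 21616169 to 21704230 and gave 6116 and 8959 WT counts against 5891 and 6913 KO counts. This is 759 and 878 CPM in WT and 700 and 761 CPM in KO, with KO replicate 2 just above WT replicate 1. Its log2 fold change was -0.16 (95% interval -0.50 to 0.17, edgeR adjusted p = 0.551). *Smarca2*, encoding the alternative ATPase BRM, lies on chromosome 19 from 26605050 to 26778322. It gave 2214 and 2869 WT counts against 2433 and 2797 KO counts, or 275 and 281 CPM against 289 and 308 CPM. It was the only one of the 10 genes in which both KO libraries exceeded both WT libraries, and the log2 fold change was 0.10 (-0.20 to 0.41, adjusted p = 0.689). Changes beyond 1.33-fold in either direction lie outside this interval for *Smarca2*.

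Among the core scaffold genes, *Smarcc2* (chromosome 10, 128459248 to 128490482) gave 5268 and 7832 WT counts against 5072 and 6011 KO counts. Its CPM values of 654 and 767 in WT overlapped those of 603 and 662 in KO (log2 fold change -0.17, 95% interval -0.51 to 0.17, edgeR adjusted p = 0.545). *Smarcc1* (chromosome 9, 110117708 to 110240178) gave 2775 and 2809 WT counts against 2142 and 2303 KO counts, or 345 and 275 CPM against 255 and 254 CPM. Both KO libraries were lower than both WT libraries, but the 2 WT libraries lay further apart than WT replicate 2 did from KO. The log2 fold change of *Smarcc1* was -0.29 (-0.64 to 0.07, adjusted p = 0.315). *Smarcb1* (chromosome 10, 75896769 to 75921617), whose product is a nucleosome-contacting core subunit present in canonical BAF and PBAF, gave 1338 and 2050 WT counts against 1328 and 1649 KO counts. Its 166 and 201 CPM in WT overlapped the 158 and 182 CPM in KO (log2 fold change -0.11, -0.47 to 0.25, adjusted p = 0.718).

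*Smarce1*, on chromosome 11 from 99209047 to 99231017, encodes an HMG-box protein that binds DNA within the complex. It gave 1337 and 1494 WT counts against 942 and 1006 KO counts. The levels were 166 and 146 CPM in WT and 112 and 111 CPM in KO, without overlap and with a gap wider than the spread within either genotype. The log2 fold change was -0.49 (SE 0.14, 95% interval -0.82 to -0.16), the lowest of the 10, and the unadjusted p of 0.00929 became an edgeR adjusted p of 0.0868 over all genes, which did not pass. Across 9 other settings with all 4 libraries, the adjusted p of *Smarce1* was 0.0281 to 0.368, and 1 setting passed. After a correction for GC content and gene length its log2 fold change was -0.20 (adjusted p = 0.368). When 1 library was left out, the log2 fold change was between -0.59 and -0.40. A processed pseudogene, *Smarce1-ps1*, is annotated elsewhere in the genome, and reads shared between the copies could not be separated from these counts.

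The ARID subunit genes had the log2 fold changes closest to 0. *Arid1a*, on chromosome 4 from 133679008 to 133756769, gave 1995 and 2305 WT counts against 1957 and 2399 KO counts, or 248 and 226 CPM against 233 and 264 CPM. The log2 fold change was 0.07 (95% interval -0.26 to 0.40, edgeR adjusted p = 0.817), and it turned to -0.0062 and -0.019 without WT replicate 2 and without KO replicate 2. *Arid1b*, on chromosome 17 from 4994332 to 5347656, gave 1470 and 2072 WT counts against 1576 and 1708 KO counts. Both KO libraries (187 and 188 CPM) lay between the WT libraries (183 and 203 CPM), with a log2 fold change of -0.04 (-0.35 to 0.28, adjusted p = 0.904) that became 0.068 under scaling by library size alone. ARID1A and ARID1B are mutually exclusive, and neither gene showed a direction that held in all settings.

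The actin-related pair marks the progenitor and the neuronal complex. *Actl6b*, the neuronal gene on chromosome 5 from 137553517 to 137569582, gave 800 and 1294 WT counts against 694 and 821 KO counts. This is 99.3 and 127 CPM in WT and 82.5 and 90.4 CPM in KO, without overlap, although the WT libraries differed by more than the gap between the genotypes. The log2 fold change of *Actl6b* was -0.39 (SE 0.17, 95% interval -0.77 to -0.000723, edgeR adjusted p = 0.22). *Actl6b* passed after the correction for GC content and gene length (-0.47, adjusted p = 0.0179), where 5.43% of all genes were called lower. Its log2 fold change was -0.56 without WT replicate 1 and -0.21 without WT replicate 2. Without KO replicate 1 it was -0.31, and without KO replicate 2 it was -0.45. *Actl6a*, the progenitor gene on chromosome 3 from 32706298 to 32726973, gave 415 and 626 WT counts against 405 and 448 KO counts, or 51.5 and 61.3 CPM against 48.2 and 49.3 CPM. Its log2 fold change was -0.21 (-0.58 to 0.15, adjusted p = 0.466). *Mrpl47* overlaps 11.6% of the exonic bases of *Actl6a* on the opposite strand, and as the strand setting of the counting is not given, their reads there were not separable. Transcripts of both forms were thus found in every library, and neither gene passed the test.

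The promoters of this pair are shown because *Dnmt1* encodes the enzyme that maintains methylation at CpG dinucleotides. *Smarcd2* is added as the one gene among the other BAF subunits that rose in KO. Each window is the RefSeq sequence (GRCm38.p6) from 250 bases before to 50 bases after a start site, written 5′ to 3′ on the gene's strand with every CG in capitals. The windows are chr3:32708296-32708595 (plus strand) for *Actl6a*, chr5:137553296-137553595 (plus strand) for *Actl6b* and chr11:106267583-106267882 (minus strand) for *Smarcd2*.
Actl6a: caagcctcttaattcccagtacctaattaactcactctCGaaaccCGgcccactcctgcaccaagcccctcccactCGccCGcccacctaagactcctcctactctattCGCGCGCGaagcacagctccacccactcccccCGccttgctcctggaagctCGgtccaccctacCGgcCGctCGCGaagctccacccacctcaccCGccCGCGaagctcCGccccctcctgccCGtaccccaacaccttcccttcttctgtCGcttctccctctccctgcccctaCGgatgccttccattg
Actl6b: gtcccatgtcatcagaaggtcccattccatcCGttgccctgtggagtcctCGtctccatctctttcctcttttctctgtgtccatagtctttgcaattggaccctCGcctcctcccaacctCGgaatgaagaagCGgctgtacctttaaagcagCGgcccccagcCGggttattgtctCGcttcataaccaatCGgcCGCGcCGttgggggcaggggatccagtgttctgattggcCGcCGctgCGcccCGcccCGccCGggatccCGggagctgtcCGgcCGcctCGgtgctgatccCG
Smarcd2: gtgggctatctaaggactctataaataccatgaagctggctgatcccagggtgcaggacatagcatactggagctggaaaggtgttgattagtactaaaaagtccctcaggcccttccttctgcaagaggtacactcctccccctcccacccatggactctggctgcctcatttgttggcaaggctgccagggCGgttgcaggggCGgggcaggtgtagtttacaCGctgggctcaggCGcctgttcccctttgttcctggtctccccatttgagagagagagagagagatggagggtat

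CG was searched for on the printed strand, which finds the same pairs as the other strand. The *Actl6a* window held 21 CG and the *Actl6b* window 23, and 24.8% and 21.5% of all 32851 RefSeq windows of 300 bases held as many or more. Windows were found for 9 of the 10 genes (10 windows, as *Arid1a* has 2), with 21 to 48 CG and a median of 31 beside a median of 7 over all windows. At least 10 CG were present in all 10 of these windows and in 43.5% of all windows. The 16 windows found for 15 of the other BAF, PBAF and ncBAF subunits were similar, with 4 to 62 CG and a median of 35. Of these, 87.5% held at least 10 CG. The *Smarcd2* window held 4 CG, the fewest among these 16, and 68.6% of all windows held as many or more. That window belongs to an internal start 5340 bases downstream of the outermost annotated start of *Smarcd2*, the window of *Actl6a* likewise to a start 2248 bases downstream of its outermost one, and gene counts do not tell which start was used. DNA methylation was not analysed here.

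Ratios within a pair do not depend on the scaling between libraries. The ratio of *Actl6b* to *Actl6a*, per kb of exon, was 1.76 and 1.88 in WT and 1.56 and 1.67 in KO. Both KO libraries were below both WT libraries, by 0.17 on the log2 scale of the means. The ratio of *Smarca2* to *Smarca4* was 0.164 and 0.145 in WT and 0.187 and 0.184 in KO, higher in both KO libraries, with a difference of 0.26. The ratio of *Smarcc2* to *Smarcc1* was 2.68 and 3.93 in WT and 3.34 and 3.68 in KO, so that KO lay within the WT range. For *Arid1b* to *Arid1a* the ratios of 0.671 and 0.819 in WT overlapped those of 0.734 and 0.649 in KO. An exact two-sided permutation test over the 4 libraries gave p = 0.333 for the first 2 pairs, the smallest value it can give with 2 against 2, and 1 and 0.667 for the others, so that this test could not pass for any ratio. The size of a ratio depends on the length assigned to each gene. With the longest transcript in place of all exons, *Actl6b* to *Actl6a* was 1.11 to 1.34 and *Smarca2* to *Smarca4* 0.345 to 0.445, while the differences between genotypes were the same.

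**Figure D3:**
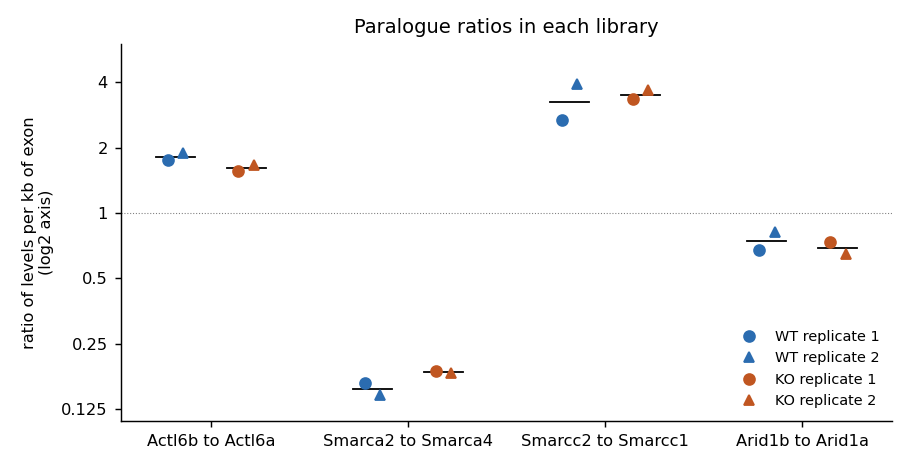
Ratio of the levels per kb of exon of 4 paralogue pairs in each library on a log2 axis, with the genotype mean as a bar (mean of the log2 ratios, n = 2). KO lies below WT for *Actl6b* to *Actl6a* (1.56 and 1.67 against 1.76 and 1.88) and above WT for *Smarca2* to *Smarca4*, while the genotypes overlap in the other 2 pairs.

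Of the other exchanged partners, all 3 of the progenitor form and 2 of 3 of the neuronal form had log2 fold changes below 0, beside 52.4% of all genes. Of the progenitor partners, *Phf10* had 77.1 and 62.6 CPM in WT and 53.5 and 44.7 CPM in KO (log2 fold change -0.51, 95% interval -0.91 to -0.11, edgeR adjusted p = 0.13), with 9.56% of its exonic bases overlapped by *1600012H06Rik* on the opposite strand. *Dpf2* and *Ss18* had log2 fold changes of -0.14 (adjusted p = 0.635) and -0.16 (adjusted p = 0.579). Of the neuronal partners, *Ss18l1*, a calcium-responsive coactivator, had 190 and 195 CPM in WT and 146 and 150 CPM in KO, with close replicates and no overlap (-0.38, -0.69 to -0.07, adjusted p = 0.142). *Dpf1* had -0.19 (adjusted p = 0.457), and *Dpf3*, a reader of acetylated histones, had 0.23 (adjusted p = 0.515). *Dpf3* had 25.82 and 24.98 CPM in WT and 26.39 and 33.15 CPM in KO. These did not overlap, although the KO libraries differed by more than the gap between the genotypes. None of these 6 genes passed with edgeR, where 2 had an unadjusted p under 0.05 (*Phf10* and *Ss18l1*), and none passed with DESeq2, beside 7.9%, 22.7% and 8.87% of all genes. *Ss18l1* and *Phf10* each passed in 2 of 9 other settings with all 4 libraries. For *Ss18l1* this included the correction for GC content and gene length (adjusted p = 0.0168), where 5.43% of all genes were called lower. When 1 library was left out, the log2 fold change of *Ss18l1* was between -0.40 and -0.35. That of *Phf10* was between -0.66 and -0.36. *Rest*, a repressor of neuronal genes in progenitors, had a log2 fold change of 0.08 (adjusted p = 0.848).

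Among all 21 other listed subunits of BAF, PBAF and the non-canonical complex ncBAF, 1 rose and 0 fell at an edgeR adjusted p under 0.05, beside the 7.33% and 0.57% of all genes. Their median log2 fold change was -0.19, and 17 were below 0. Over all genes 52.4% were below 0, and 3203 of the 4489 genes at or above the lowest member in mean CPM. The gene that rose was *Smarcd2*, whose product is an accessory subunit best known from blood cell development. It lies on chromosome 11 from 106263179 to 106272972 and gave 114 and 159 WT counts against 260 and 300 KO counts. Its level of 14.9 ± 1.01 CPM (SD, n = 2) in WT was 32.0 ± 1.51 CPM in KO, a difference far above the spread between replicates. This is a 2.15-fold change (log2 fold change 1.10, SE 0.19, 95% interval 0.67 to 1.54, adjusted p = 0.00909). Without KO replicate 2 the adjusted p of *Smarcd2* was 0.0616 at a log2 fold change of 1.06. The astrocyte, oligodendrocyte and mural markers called above were higher in the same KO libraries, and their part in the value of *Smarcd2* was not tested.

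The paralogues of *Smarcd2* did not pass the test. *Smarcd1* had 30.3 and 31.9 CPM per kb of exon in WT and 27.6 and 32.2 in KO (log2 fold change -0.06, 95% interval -0.40 to 0.28, edgeR adjusted p = 0.854). *Smarcd3*, linked to heart and neuronal development, had 14.9 and 18.4 CPM per kb in WT and 14.0 and 16.5 in KO (-0.13, adjusted p = 0.695), but *Chpf2* overlaps 48.2% of its exonic bases on the other strand. These paralogues were chosen after the values of *Smarcd2* were seen. Of the summed level per kb of the 3 genes, *Smarcd2* made up 8.02% and 7.94% in WT and 17.2% and 15.9% in KO, so that *Smarcd1* remained the most abundant in every library (54.9% to 61.7%).

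The lowest log2 fold change of these 21 genes was that of *Bcl11b*, a zinc-finger transcription factor that associates with BAF in neurons. *Bcl11b* gave 1156 and 1358 WT counts against 813 and 877 KO counts (log2 fold change -0.52, SE 0.14, 95% interval -0.84 to -0.19). Its edgeR adjusted p was 0.0663. The gene passed with DESeq2 (adjusted p = 0.0363), without a filter and after the correction for GC content and gene length. In these settings 1.47%, 1.91% and 5.43% of all genes were called lower. *Bcl11b* did not pass with DESeq2's size factors, library size only, at least 10 counts in every library or without mitochondrial genes. By group, medians were -0.16 in the 3 progenitor partners, -0.19 in the 3 neuronal partners, -0.15 in the 9 shared or associated subunits, -0.20 in the 3 PBAF subunits and -0.02 in the 3 ncBAF subunits. At an unadjusted p under 0.05, 6 of the 21 genes were lower and 2 higher, beside 8.01% and 14.6% of all genes. In the 4489 genes at or above the lowest member in mean CPM, 706 were lower and 371 higher, although some of the 21 genes lay below that level.

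**Figure D4:**
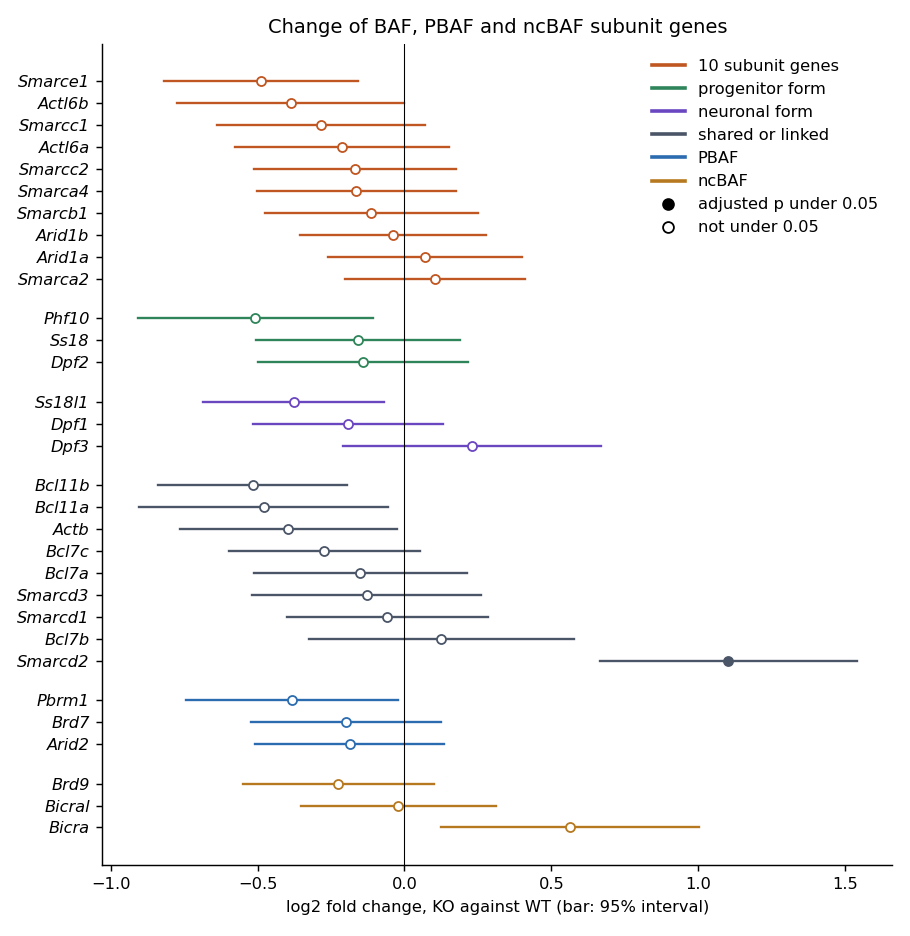
Log2 fold change of KO against WT with its 95% interval for the 10 BAF subunit genes and 21 other subunits of BAF, PBAF and ncBAF, grouped by form. *Smarcd2* (1.10) is the only filled symbol, an edgeR adjusted p under 0.05, and the 10 genes at the top lie between -0.49 and 0.10.

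For comparison, 34 genes of other remodeller families (ISWI, CHD and NuRD, INO80 and related) were read from the same fit. None of them passed with edgeR, while 3 had an unadjusted p under 0.05 and DESeq2 called 1 lower (*Smarcad1*), beside 7.9%, 22.7% and 1.47% of all genes. The median log2 fold change was -0.11 with 24 genes below 0, beside 52.4% of all genes. The lowest was *Smarcad1*, a remodeller of heterochromatin that is no BAF subunit (-0.64, SE 0.17, edgeR adjusted p = 0.0592), and the highest was *Cecr2* (0.58, SE 0.17, adjusted p = 0.0853).

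Across 9 other ways of processing the 4 libraries, the log2 fold changes of 9 of the 10 BAF subunit genes kept their sign, *Arid1b* being the exception. *Smarca4* was between -0.21 and -0.06, *Smarca2* between 0.09 and 0.21 and *Smarcc2* between -0.23 and -0.06. *Smarce1* moved furthest, between -0.49 and -0.19. *Smarcd2* was between 0.99 and 1.21 and passed in 9 of 9.

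**Figure D5:**
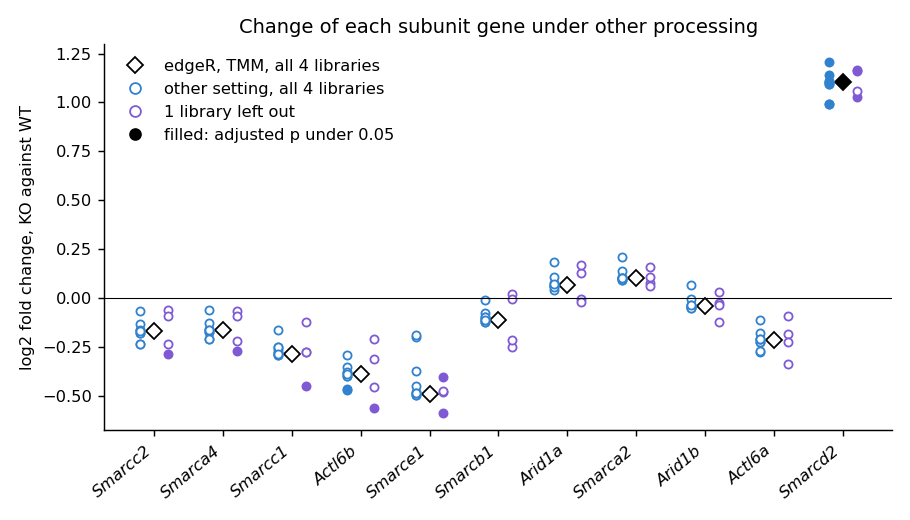
Log2 fold change of KO against WT for the 10 BAF subunit genes and *Smarcd2* as reported (diamond), under 9 other settings with all 4 libraries (blue) and with 1 library left out (purple); filled symbols have an adjusted p under 0.05. All values of *Smarcd2* lie between 0.99 and 1.21, while those of the 10 genes stay between -0.59 and 0.21.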

How the data were processed

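RNA of sorted tdTomato-positive cells was analysed in 2 *Dnmt1* WT and 2 KO libraries. The deposited values are raw counts of reads for each Ensembl gene, made by the authors with no normalization, as 1 list per library. The submitters' processing notes name CASAVA 1.8.2, STAR 2.5.2a, featureCounts 1.5.0-p1 and the build mm10 (GRCm38). Annotation release and strand setting are not given in the sources used here. Of 55573 identifiers, 55480 were matched to GENCODE M21 (GRCm38), which gave symbols, positions and lengths.

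Counts were filtered by edgeR's expression filter, scaled by TMM and compared between genotypes with the quasi-likelihood test of edgeR 4.0.16 (limma 3.58.1, R 4.3.3), fitting genotype alone. Adjusted p-values follow Benjamini and Hochberg over all genes tested (threshold 0.05). SEs were derived from the test statistic, and 95% intervals from the t distribution with the moderated degrees of freedom. Levels per kb used the union of exons. Intervals rest on 2 libraries per genotype.

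Members, gene lists and tests were chosen with earlier results of these data known. Genes named are the 10 members, *Dnmt1*, *Rest*, 6 exchanged partners, and, in the lists of other subunits and other remodellers, those under the threshold and the lowest and highest; markers are given as counts with up to 3 genes, and *Smarcd1* and *Smarcd3* were added afterwards. Alternatives were DESeq2 1.42.0, DESeq2's size factors, library size only, no filter, at least 10 counts in every library, a replicate block, a correction of each library for GC content and length (splines, centred per library, a choice made after the data were seen), both together, no mitochondrial genes, and each library left out. The procedures were tested on simulated counts. MeDIP data were not analysed here.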

Additional observations from a re-analysis of the deposited data

How the results depend on the processing

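Over all genes, 1329 were called (92.8% higher in KO). The count was 2363 without a filter (75.8% higher), 883 with at least 10 counts in every library, 2820 after the correction for GC content and length (67.6% higher), 2244 with the replicate block (72.4% higher), 3587 with block and correction together (61.8% higher), and 951 to 4209 when 1 library was left out, with 3878 without WT replicate 1 (66.5% higher) and 4209 without WT replicate 2 (48.2% higher). Scaling by library size alone moved the median of all genes by 0.11 on the log2 scale. Of the 10 BAF subunit genes, 1 was called lower with the replicate block (*Smarce1*, adjusted p = 0.0281, with 3.68% of all genes lower), 1 after the correction and 1 with both (*Actl6b* each time, with 5.43% and 8.15%), and 0 to 4 when 1 library was left out. Of the 21 other subunits, 2 were called with DESeq2 (1 higher and 1 lower, beside 7.4% and 1.47% of all genes), 3 without a filter (1 and 2, beside 5.97% and 1.91%), 4 with the replicate block (2 and 2, beside 9.65% and 3.68%), 5 after the correction (2 and 3, beside 11.3% and 5.43%), 7 with both (2 and 5, beside 13.2% and 8.15%), and 0 (without KO replicate 2) to 8 (2 higher and 6 lower, without WT replicate 2, beside 11.2% and 12.0%) when 1 library was left out. *Bcl11b* and *Phf10* were among those called with the replicate block, with and without the correction. The direction turned for *Arid1b* under library size alone (0.068), and among the fits without 1 library for *Smarcb1* (-0.25 to 0.021), *Arid1a* (-0.019 to 0.17) and *Arid1b* (-0.12 to 0.030). The cause of these shifts was not tested. Among the paralogue ratios, the log2 difference of *Smarcc2* to *Smarcc1* was -0.17 to 0.39 and that of *Arid1b* to *Arid1a* -0.25 to 0.039 when 1 library was left out, so both turned, while *Actl6b* to *Actl6a* was -0.22 to -0.12 and *Smarca2* to *Smarca4* 0.18 to 0.35. After the correction for GC content and length, *Smarca2* to *Smarca4* was 0.31 and *Smarcc2* to *Smarcc1* 0.014. The replicate number is not stated to mark a shared pool or day: same-numbered libraries deviated from their genotype's mean with r = 0.137 over genes, and genes are not replicates. In the fits without 1 library, the single remaining one of that genotype is assumed to vary like the other genotype, although chi-square per degree of freedom was 57.2 for the WT pair and 4.28 for the KO pair, so calls without a WT library rest on the smaller spread. With 2 libraries per genotype, the 95% intervals of the 10 genes span folds from 0.568 (*Smarce1*) to 1.33 (*Smarca2*).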
